A study of Mus musculus with 43 samples.

Results

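Fragments of the glutamic acid tRNAs were followed through the mouse epididymis and into cauda sperm, in wild-type (WT) FVB mice and in FVB mice with a homozygous CRISPR/Cas9 deletion of a cluster of RNase A family genes, Rnase9 to Rnase12 (KO). Members were all RNAs in the count tables of epididymis tissue, epididymal fluid and sperm whose name begins with tRNA-Glu and ends with a fragment type. These were 18 of 5364 RNAs listed in any of these tables. They belong to both anticodons, tRNA-Glu-CTC and tRNA-Glu-TTC, each with 3 isodecoders (tRNAs that share an anticodon and differ elsewhere in sequence), CTC-1, CTC-2 and CTC-5, and TTC-1, TTC-2 and TTC-3. Each isodecoder has 3 fragment types: tRF_5′, which starts at the 5′ end of the mature tRNA, tRF_3′, which ends at its 3′ end, and tRF_other, which reaches neither end.

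The mice were 8 to 12 weeks old, and by the labels WT and KO groups differ in no allele or treatment other than the deletion. The 17 tissue libraries, made by ARM-seq, came from caput (3 WT, 3 KO), corpus (3 WT, 2 KO) and cauda (3 WT, 3 KO), the proximal, middle and distal segments of the epididymis. The 18 libraries of luminal fluid freed of sperm and extracellular vesicles came from the same segments with 3 of each genotype, and the 8 libraries of cauda sperm held 4 of each genotype; both were made by OTTR-seq from RNA pooled over several mice. The deletion is present in every cell of the KO mice, so these comparisons do not separate the epididymis from other tissues. The section label of WT caput tissue replicate 3 and of all 6 caput fluid libraries reads cauda while their titles name the caput, and the titles were followed. The deleted genes were not analysed here, so the genotype labels were not checked against them.

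A tRNA carries an amino acid to the ribosome, and tRNA-Glu brings glutamate to the codons that its CTC or TTC anticodon reads. Cleavage of mature tRNAs, often in the anticodon loop and by RNases such as angiogenin, leaves 5′ and 3′ fragments. Such fragments are abundant in the epididymis and in sperm, and 5′ fragments of tRNA-Glu and tRNA-Gly are among the best known small RNAs of mature mouse sperm. In the mouse genome (GRCm38), RefSeq lists 20 nuclear tRNA-Glu genes, 12 with the CTC and 8 with the TTC anticodon, each 72 bases long and spread over 10 chromosomes. Of these, 7 lie in introns of other genes and 13 lie outside gene bodies; none overlaps an exon. For example, n-TEctc3 lies within an intron of Arrb1 at chr7:99543900-99543971, n-TEttc4 within an intron of Elf1 at chr14:79481668-79481739, and n-TEttc1 between genes at chr1:34434812-34434883. The tables do not pair these genes with the isodecoder names.

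Libraries held 30142156 to 249732714 counts in tissue, 1948718 to 12320922 in fluid and 1134840 to 62128314 in sperm. The tissue libraries numbered 3 were the deepest of their groups, with 67360266 to 249732714 counts. In sperm, WT replicate 1 and KO replicates 1 to 3 held 42764979 to 62128314 counts (the deep libraries), and WT replicates 2 to 4 and KO replicate 4 held 1134840 to 3618739 (the shallow libraries). After a filter on low counts, 17 of the 18 members were tested in tissue and 16 each in fluid and sperm. CTC-5 tRF_other was left out everywhere, with at most 18 counts in any library, and CTC-5 tRF_3′ had 0 counts in all 18 fluid libraries. Some rows could not be told apart. TTC-1 and TTC-2 tRF_other differed by 0.00874% in tissue, by 0.0486% in fluid and not at all in sperm, and CTC-1 and TTC-3 tRF_3′ differed by 0.351% in fluid and 0.472% in sperm, although they differed clearly in tissue. Each of these pairs is therefore close to 1 measurement, and the anticodon of CTC-1 and TTC-3 tRF_3′ is uncertain in fluid and sperm.

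The tRNA-Glu fragments were mostly 5′ fragments in fluid, while 3′ fragments were the largest class in all 17 tissue libraries, and sperm held a mix of 5′ and internal fragments. In fluid, tRF_5′ made up 66.2% to 91.9% of the tRNA-Glu fragment counts of a library. In tissue it made up 9.71% to 33.1%, whereas tRF_3′ made up 40.7% to 58.4% and tRF_other 15.6% to 42.1%. In sperm, tRF_5′ made up 40.3% to 71.1%, tRF_other 25.01% to 57.3% and tRF_3′ 1.12% to 10.1%. The range of tRF_3′ shares in tissue overlapped neither that in fluid nor that in sperm. The tissue libraries were made with another protocol than the fluid and sperm libraries, so source and protocol cannot be told apart, and no test was run between them.

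**Figure D1:**
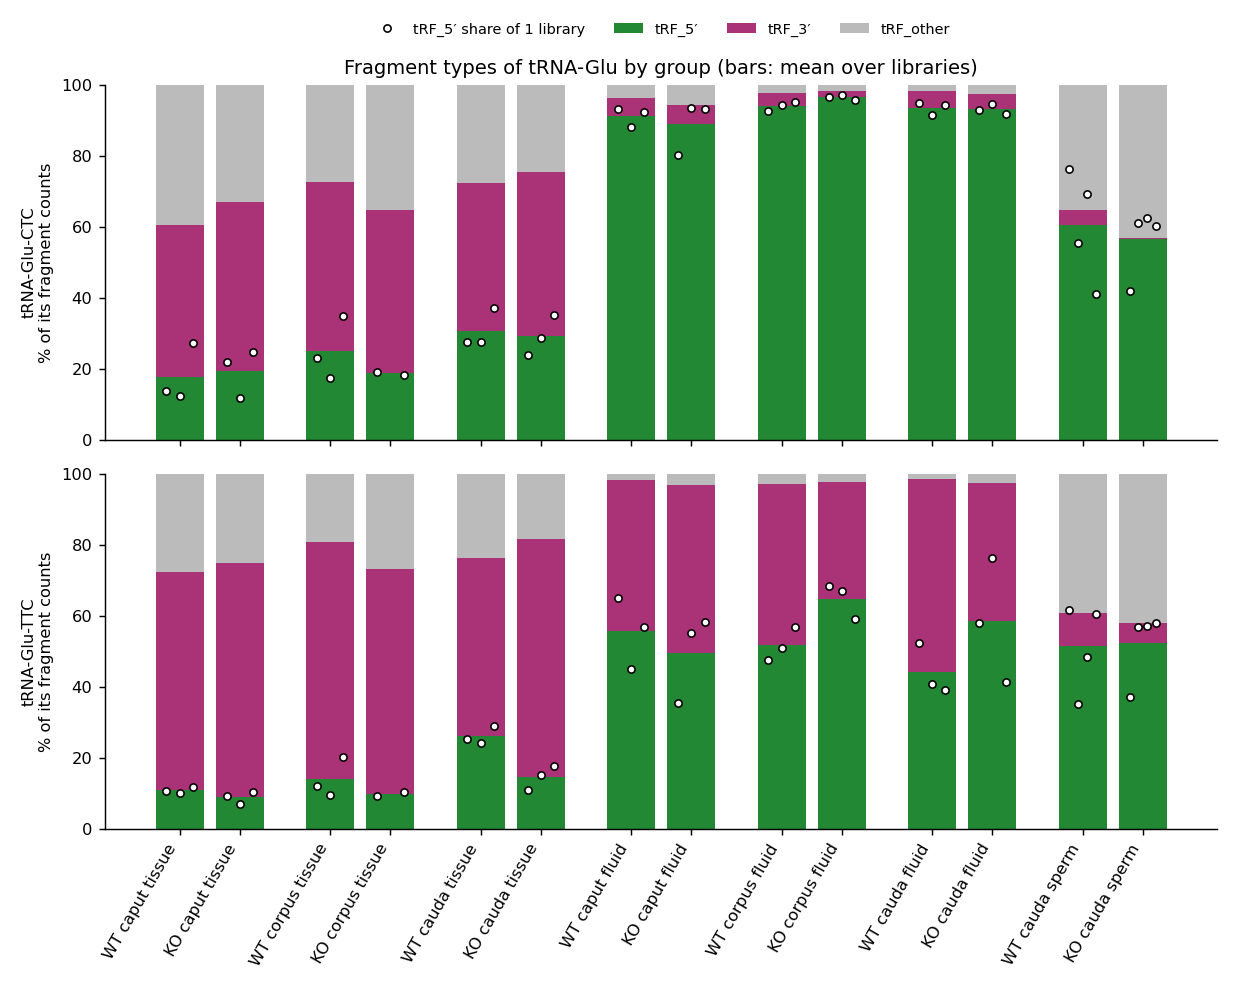
Share of tRF_5′, tRF_3′ and tRF_other in the fragment counts of tRNA-Glu-CTC (top) and tRNA-Glu-TTC (bottom) (percent, y axis) in each of the 14 groups (x axis); stacked bars are means over libraries, and open points give the tRF_5′ share of each library. In the 6 fluid groups the mean tRF_5′ share is 88.96% to 96.5% for CTC and 44.2% to 64.9% for TTC.

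Both anticodons took part in this split, but unequally. CTC fragments in fluid were nearly all 5′ fragments, 80.2% to 97.2% of CTC counts, with tRF_3′ at 1.37% to 6.15%. TTC fragments in fluid were divided between tRF_5′, at 35.4% to 76.4% of TTC counts, and tRF_3′, at 21.2% to 60.5%. In sperm, CTC tRF_5′ made up 41.1% to 76.3% of CTC counts and TTC tRF_5′ made up 35.3% to 61.7% of TTC counts. CTC supplied 50.4% to 62.8% of tRNA-Glu fragment counts in tissue, 55.9% to 82.4% in fluid and 53.0% to 73.6% in sperm. The near-equal rows enter these totals more than once. A second estimate took the most counted isodecoder of each anticodon and fragment type alone. By that estimate, CTC supplied 62.9% to 75.3% in tissue, 66.96% to 88.7% in fluid and 65.8% to 83.04% in sperm.

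tRNA-Glu fragments made up 5.30% to 12.8% of all tRF counts in fluid, 3.10% to 7.78% in tissue and 2.59% to 4.78% in sperm. With the most counted isodecoder of each anticodon and fragment type alone, for all tRNAs, these shares were 8.18% to 20.2%, 6.18% to 13.9% and 4.44% to 9.70%. Because tRFs dominate fluid, this came to 4.04% to 9.85% of all counts there, against 0.0368% to 0.372% in tissue and 0.0559% to 0.319% in sperm. Ordered by mean share of tRF counts, KO corpus fluid stood first (11.6% ± 1.8, SD, n = 3), followed by WT cauda (8.50% ± 1.6, n = 3), WT corpus (8.42% ± 1.7, n = 3) and KO cauda fluid (8.27% ± 1.8, n = 3), and then KO caput (6.96% ± 0.62, n = 3) and WT caput fluid (6.26% ± 0.87, n = 3). Cauda tissue followed, WT (5.72% ± 1.9, n = 3) above KO (5.63% ± 1.1, n = 3), then WT corpus tissue (5.30% ± 1.9, n = 3), KO sperm (4.59% ± 0.26, n = 4), WT and KO caput tissue (4.14% ± 1.7 and 4.12% ± 1.2, n = 3 each), KO corpus tissue (3.50% ± 0.11, n = 2) and WT sperm (3.40% ± 0.56, n = 4). In this order, every group's range overlapped that of the next.

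Full-length tRNA-Glu had few counts beside its fragments. The paper states that its cloning method favours shorter RNAs, so these counts do not give the true ratio. Full-length tRNA-Glu made up, as group means, 0.913% to 2.63% of full-length and fragment counts together in tissue, 0.013% to 0.536% in fluid, and 0.100% in WT and 0.004% in KO sperm. Levels of named fragments are given below as CPM, counts scaled to a common library total adjusted by the trimmed mean of M values, computed separately for tissue, fluid and sperm, so that CPM values are not comparable between these sources. RNAs were called changed when the edgeR quasi-likelihood test gave a Benjamini-Hochberg adjusted p under 0.05, over all RNAs tested in that source, with a log2 fold change beyond 1 in either direction. The p-values measure the spread between libraries, since the labels do not say whether tissue libraries came from separate mice. In bulk libraries, fewer cells of a type and less RNA per cell cannot be told apart.

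Within WT tissue, the 5′ fragments of TTC-1 and TTC-2 rose from caput to cauda. TTC-1 tRF_5′ was at 25.3, 15.3 and 46.8 CPM in the WT caput libraries and at 56.1, 62.3 and 203 CPM in WT cauda. TTC-2 tRF_5′ was at 16.7, 11.6 and 33.5 CPM in caput and at 46.3, 49.5 and 155 CPM in cauda. For both fragments every cauda library was above every caput library, and the library numbered 3 was the highest of its group. The log2 fold change was 1.88 for TTC-1 (SE 0.66, adjusted p = 0.0479) and 2.02 for TTC-2 (SE 0.63, adjusted p = 0.0262). They were the only members called in this comparison, 2 of 17, where 15.7% of all RNAs tested were called higher.

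The other 5′ fragments had log2 fold changes of the same sign that did not pass the test. CTC-1 tRF_5′, the most counted 5′ fragment, was at 80.4, 46.8 and 293 CPM in WT caput and at 111, 119 and 440 CPM in WT cauda, with overlapping groups and a log2 fold change of 0.67 (SE 0.76, adjusted p = 0.58). Over the 6 tRF_5′ members the median log2 fold change was 0.96, against -0.05 over all RNAs tested and -0.42 over the 589 other tRFs tested, of which 67 were called lower and 3 higher. Members of the other types were not called in the edgeR test above. CTC-1 tRF_other, for instance, was at 313, 224 and 268 CPM in caput and at 161, 158 and 212 CPM in cauda (log2 fold change -0.60, SE 0.24, adjusted p = 0.0873). With scaling that left out tRFs, tRNAs and rsRNAs (fragments of rRNA), it was called lower at -1.17. With the replicate number as a block over all tissue libraries, WT and KO, the TTC-1 tRF_5′ log2 fold change was 1.76 (adjusted p = 5.97e-05). TTC-1 was no longer called with library size as the only scaling (1.66), with scaling that left out tRFs, tRNAs and rsRNAs (1.36), with no filter on low counts (1.90) or with a fit of these 2 groups alone (1.98). No member was called without WT caput replicate 1 or 2 or WT cauda replicate 3; without replicate 3 of cauda, CTC-1 tRF_5′ turned to -0.13.

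Smooth muscle microRNAs (Mir143 and Mir145a) also differed between these segments, with a summed level of 20.6 to 40.3 CPM in WT caput and 108 to 216 CPM in WT cauda; their part in the result was not tested. In WT corpus, TTC-1 tRF_5′ was at 33.1, 19.2 and 91.9 CPM, a range that overlapped both other segments; corpus and cauda were not compared by a test. None of 17 members was called between WT corpus and WT caput by edgeR, 1 had an unadjusted p under 0.05, and DESeq2 called 0, where edgeR called 11.8% of all RNAs.

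**Figure D2:**
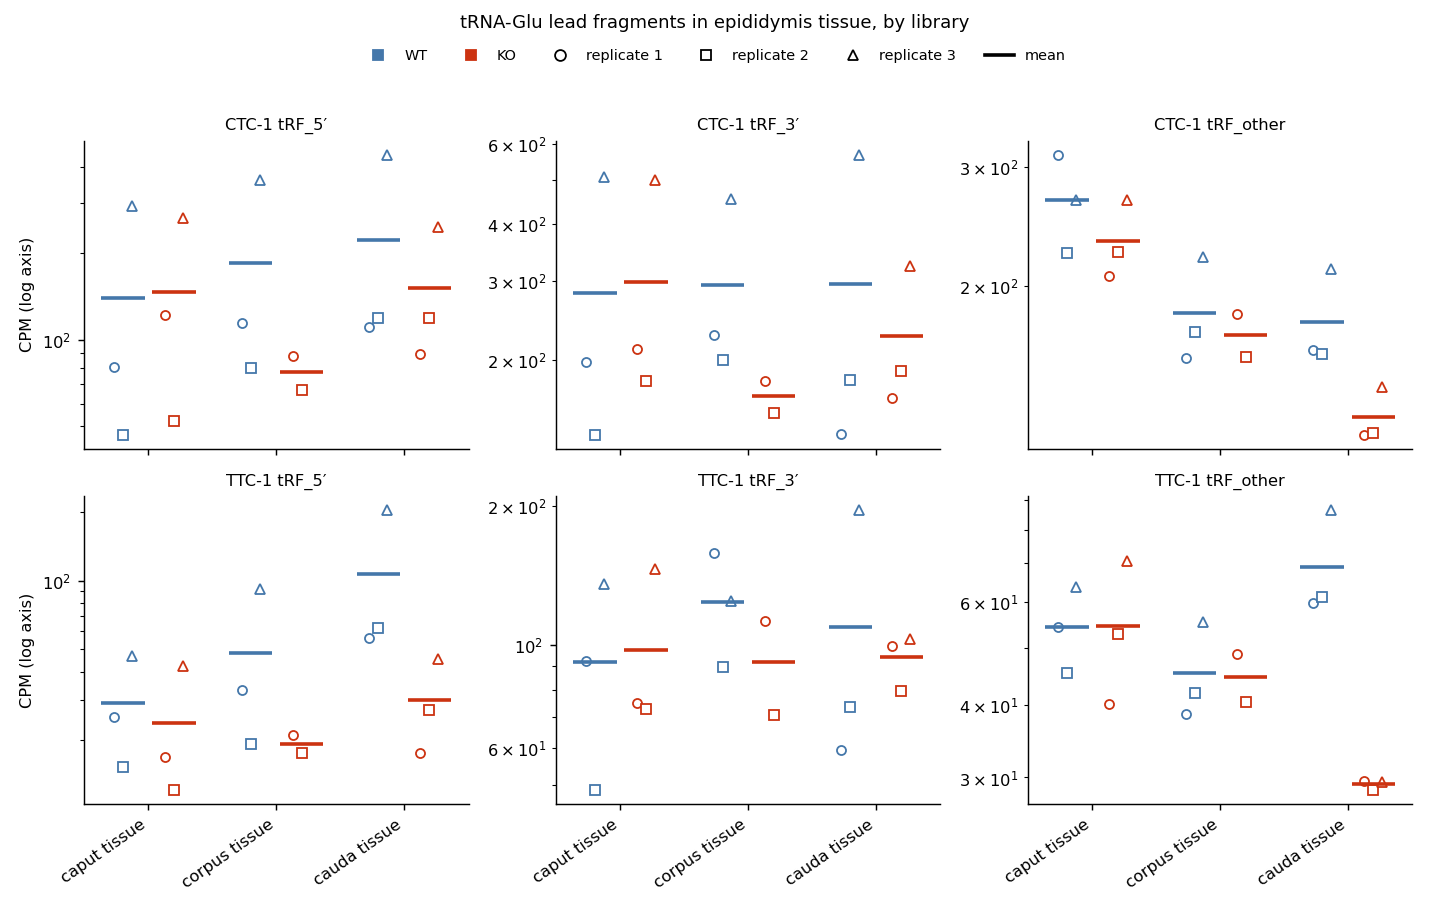
Level of the 3 fragment types of tRNA-Glu-CTC-1 (top) and tRNA-Glu-TTC-1 (bottom) in each tissue library, in CPM on log axes that differ between panels; colour marks genotype, the symbol the replicate number and the line the group mean. TTC-1 tRF_5′ lies at 56.1 to 203 CPM in WT cauda and at 17.5 to 45.2 CPM in KO cauda.

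In cauda tissue, the internal fragments of TTC-1 and TTC-2 were lower in KO than in WT. TTC-1 tRF_other was at 59.8, 61.3 and 86.4 CPM in WT cauda and at 29.5, 28.5 and 29.5 CPM in KO cauda. TTC-2 tRF_other, nearly the same measurement, had the same values to within this rounding. The KO libraries lay close together and all below the WT libraries. The log2 fold change was -1.25 for each (SE 0.28, adjusted p = 0.0473). These were the 2 members called of 17, or 1 fragment pool in effect, where 0.831% of all RNAs tested were called lower; DESeq2 called 5 members, all lower, where it called 4.69% of all RNAs lower.

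The 5′ fragments of TTC-1 and TTC-2 had larger fold changes with wider errors, while that of TTC-3 was at -0.79 (SE 0.36, adjusted p = 0.319). TTC-1 tRF_5′ was at 56.1, 62.3 and 203 CPM in WT cauda and at 17.5, 27.03 and 45.2 CPM in KO cauda. TTC-2 tRF_5′ was at 46.3, 49.5 and 155 CPM in WT and at 13.4, 16.2 and 29.8 CPM in KO. Neither overlapped between genotypes, and in both genotypes replicate 3 was the highest. The log2 fold changes were -1.84 (SE 0.66, adjusted p = 0.186) and -2.08 (SE 0.63, adjusted p = 0.142), so neither was called by edgeR. DESeq2 called TTC-1 tRF_5′ lower in KO cauda tissue, at -1.92. In this segment, WT and KO libraries with the same number deviated together. When the number entered the fit as a block, both were called lower, TTC-1 at -1.64 (SE 0.29, adjusted p = 0.00195) and TTC-2 at -1.91 (SE 0.26, adjusted p = 9.7e-05), beside TTC-1 tRF_other at -1.22 (SE 0.24, adjusted p = 0.00331) and TTC-2 tRF_other. That made 4 members called under the block, where 326 RNAs were called in all against 30 without it. The block spanned all tissue groups, not cauda alone.

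tRNA-Glu-CTC fragments were not called by edgeR in cauda tissue. CTC-1 tRF_5′ was at 111, 119 and 440 CPM in WT and at 89.3, 119 and 246 CPM in KO, and the groups overlapped (log2 fold change -0.56, SE 0.76, adjusted p = 0.78). CTC-1 tRF_3′ was at 137, 181 and 569 CPM in WT and at 166, 190 and 324 CPM in KO (-0.39, SE 0.58, adjusted p = 0.8). CTC-1 tRF_other was at 161, 158 and 212 CPM in WT and at 120, 121 and 141 CPM in KO, without overlap (-0.47, SE 0.24, adjusted p = 0.379). TTC-1 tRF_3′, at 59.5, 73.5 and 196 CPM in WT and at 99.5, 79.8 and 103 CPM in KO, overlapped as well (-0.22, SE 0.46, adjusted p = 0.863).

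In cauda tissue the log2 fold changes of all 17 members were below 0. Their median was -0.73, against 0.12 over all RNAs tested and -0.55 over the other tRFs, of which 498 of 589 were negative. Medians were -0.94 for the 12 fragments of tRNA-Gly-GCC and -0.88 for the 17 of tRNA-Val-CAC, so tRNA-Glu stood among other tRNAs here. The median was -1.04 over TTC members and -0.58 over CTC members. Every KO library was below every WT library for 8 of 17 members, and for 10.1% of all RNAs tested. The 4 full-length tRNA-Glu rows had positive log2 fold changes, with a median of 0.85, and none was called. These signs rest partly on the deep libraries: with the libraries numbered 1 and 2 alone, 14 of 17 members were negative, TTC-1 and TTC-2 tRF_5′ were called lower (-1.43, adjusted p = 0.0345, and -1.71, adjusted p = 0.0140), as were both TTC tRF_other rows, where 2.04% of all RNAs were called lower, and without WT replicate 3 CTC-1 tRF_5′ and tRF_3′ and TTC-1 tRF_3′ turned positive.

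The CTC share of tRNA-Glu fragment counts, which does not depend on library scaling, was 52.4%, 51.7% and 50.4% in WT cauda tissue and 57.6%, 59.7% and 62.8% in KO cauda tissue. The KO libraries were all higher. The means differed by 8.55 percentage points (51.5% ± 0.99 and 60.04% ± 2.6, SD, n = 3 each); the two-sided exact permutation test gave p = 0.1, the smallest p that 3 against 3 libraries allow, and an adjusted p of 0.467 over 21 such tests. tRF_5′ made up 26.2% ± 2.4 of TTC counts in WT cauda and 14.6% ± 3.4 in KO cauda (SD, n = 3 each). As a share of all tRF counts, tRNA-Glu differed by less than the spread between libraries (5.72% ± 1.9 in WT, 5.63% ± 1.1 in KO). The call of the 2 tRF_other members was lost, with 0 members called, without WT replicate 1 (TTC-1 tRF_other at -1.34) or WT replicate 3 (-1.23), with library size as the only scaling (-1.85), with scaling that left out tRFs, tRNAs and rsRNAs (-1.44), and with a fit of WT and KO cauda alone (-1.23). Smooth muscle microRNAs summed to 108 to 216 CPM in WT and 107 to 140 CPM in KO cauda.

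In caput tissue no difference between genotypes was detectable, and in corpus tissue none passed the test. TTC-1 tRF_5′ was at 25.3, 15.3 and 46.8 CPM in WT caput and at 16.9, 12.1 and 42.5 CPM in KO caput (log2 fold change -0.29, SE 0.64). TTC-1 tRF_other was at 54.4, 45.4 and 63.7 CPM in WT caput and at 40.2, 53.0 and 70.7 CPM in KO caput. Both overlapped, and all 17 adjusted p-values in caput rounded to 1. edgeR called 0 of 17 members in caput, 0 had an unadjusted p under 0.05 and DESeq2 called 0, where edgeR called 0% of all RNAs tested.

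In corpus tissue, with only 2 KO libraries, TTC-1 tRF_5′ was at 33.1, 19.2 and 91.9 CPM in WT and at 21.1 and 17.5 CPM in KO (log2 fold change -1.32, SE 0.75, adjusted p = 0.671). CTC-1 tRF_5′ was at 114, 79.9 and 359 CPM in WT and at 87.99 and 66.9 CPM in KO (-1.25, SE 0.88, adjusted p = 0.765). In both the groups overlapped, and the WT group held a library numbered 3 while the KO group held none. The log2 fold change was below 0 for 15 of 17 members, and its median was -0.42, against -0.04 over all RNAs. Epithelial microRNAs (those listed below for fluid) summed to 16.3 to 25.9 CPM in WT and 10.5 to 10.7 CPM in KO corpus tissue. Smooth muscle microRNAs summed to 44.2 to 87.5 CPM in WT and 24.3 to 29.5 CPM in KO. The part of either list in these values was not tested. edgeR called 0 members, 0 had an unadjusted p under 0.05 and DESeq2 called 0, where edgeR called 0% of all RNAs tested. Without a replicate block, the KO effect was not shown to differ between cauda and caput tissue. For TTC-1 tRF_other the effect in cauda was lower than that in caput by -1.25 (SE 0.39, adjusted p = 0.65), and edgeR called 0 of 17 such differences, with 4 at an unadjusted p under 0.05 and 0 by DESeq2, where it called 0% over all RNAs. With the block, 1 of 17 differences was called, that of TTC-2 tRF_5′ at -1.71 (SE 0.36, adjusted p = 0.0284), where 0.459% of all RNAs were. Correlations of same-numbered WT and KO libraries were 0.28, 0.27 and 0.60 in cauda and 0.03, 0.52 and 0.72 in caput tissue. Caput replicate 1 thus failed the pairing check, which asked every correlation to exceed 0.1.

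**Figure D3:**
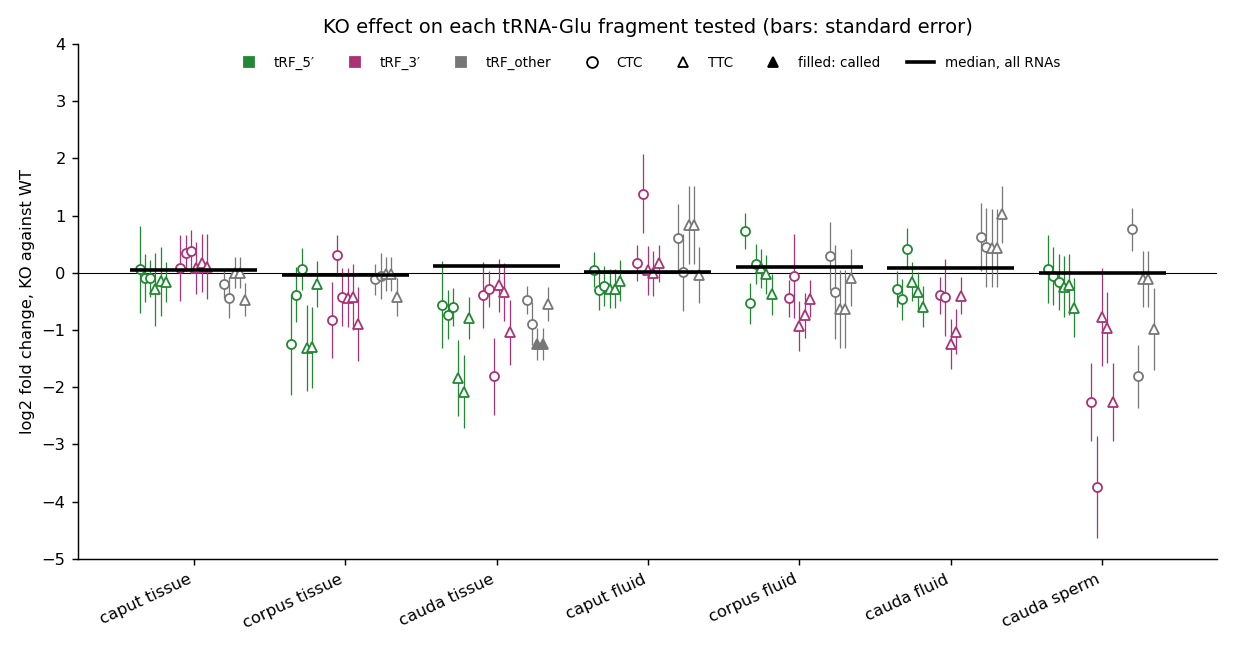
Log2 fold change of KO against WT (y axis) for each tRNA-Glu fragment tested in the 7 tissue, fluid and sperm comparisons (x axis), with its standard error; colour marks the fragment type, circles CTC and triangles TTC, filled symbols the RNAs called, and black lines the median over all RNAs tested. The 2 filled symbols are TTC-1 and TTC-2 tRF_other in cauda tissue at -1.25.

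In WT fluid, the 3′ fragments of TTC-1 and TTC-2 rose from caput to cauda. TTC-1 tRF_3′ was at 1879, 3536 and 3400 CPM in WT caput fluid and at 10115, 8005 and 16561 CPM in WT cauda fluid. TTC-2 tRF_3′ was at 1339, 1816 and 1976 CPM in caput and at 4701, 3604 and 7254 CPM in cauda. Every cauda library was above every caput library for both. The log2 fold change was 1.98 for TTC-1 (SE 0.45, adjusted p = 0.0034) and 1.60 for TTC-2 (SE 0.40, adjusted p = 0.00612). These 2 of 16 members were called higher, where 9.69% of all RNAs tested were. The call of TTC-1 tRF_3′ was kept under every alternative run, with adjusted p between 0.000135 and 0.0296. MicroRNAs of several cell types were also higher in WT cauda than in WT caput fluid, but those of epithelium were not. Epithelial microRNAs (Mir200a, Mir200b, Mir200c, Mir141 and Mir429) summed to 103 to 182 CPM in caput and 75.1 to 132 CPM in cauda. Those of germ and multiciliated cells (Mir34b, Mir34c and Mir449a) summed to 1.996 to 3.499 CPM in caput and 15.1 to 31.6 CPM in cauda, those of leukocytes (Mir223 and Mir142) to 6.4 to 9.98 and 19.9 to 39.7 CPM, those of smooth muscle to 76.8 to 139 and 147 to 321 CPM, and those of red blood cells to 23.6 to 25.02 and 39.97 to 60.98 CPM; their part in the result was not tested.

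CTC-5 tRF_5′, a fragment of low count, fell along the same path. It was at 53.5, 34.99 and 38.6 CPM in WT caput fluid and at 18.4, 19.7 and 15.1 CPM in WT cauda fluid, without overlap. Its log2 fold change was -1.25 (SE 0.35, adjusted p = 0.0136), and it was the 1 member called lower, where 15.4% of all RNAs tested were. The 5′ fragment that dominates fluid, CTC-1 tRF_5′, did not pass the test. It was at 40459, 25962 and 39737 CPM in WT caput and at 51054, 30391 and 52627 CPM in WT cauda (0.34, SE 0.31, adjusted p = 0.45). TTC-1 tRF_5′ was at 6147, 3558 and 5939 CPM in caput and at 11561, 5931 and 10925 CPM in cauda (0.86, SE 0.35, adjusted p = 0.071). It was called at 1.07 by DESeq2, at 1.07 with DESeq2 size factors and at 1.12 with scaling that left out tRFs, tRNAs and rsRNAs. DESeq2 called 5 members in this comparison, 4 higher and 1 lower, where it called 23% of all RNAs.

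In WT corpus fluid, TTC-1 tRF_3′ was at 7126, 5052 and 3724 CPM, above all caput and below all cauda libraries. Its log2 fold change against caput was 0.85 (SE 0.43, adjusted p = 0.182). edgeR called 0 of 16 members between WT corpus and WT caput fluid, 2 had an unadjusted p under 0.05 and DESeq2 called 0, where edgeR called 17.7% of all RNAs tested.

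**Figure D4:**
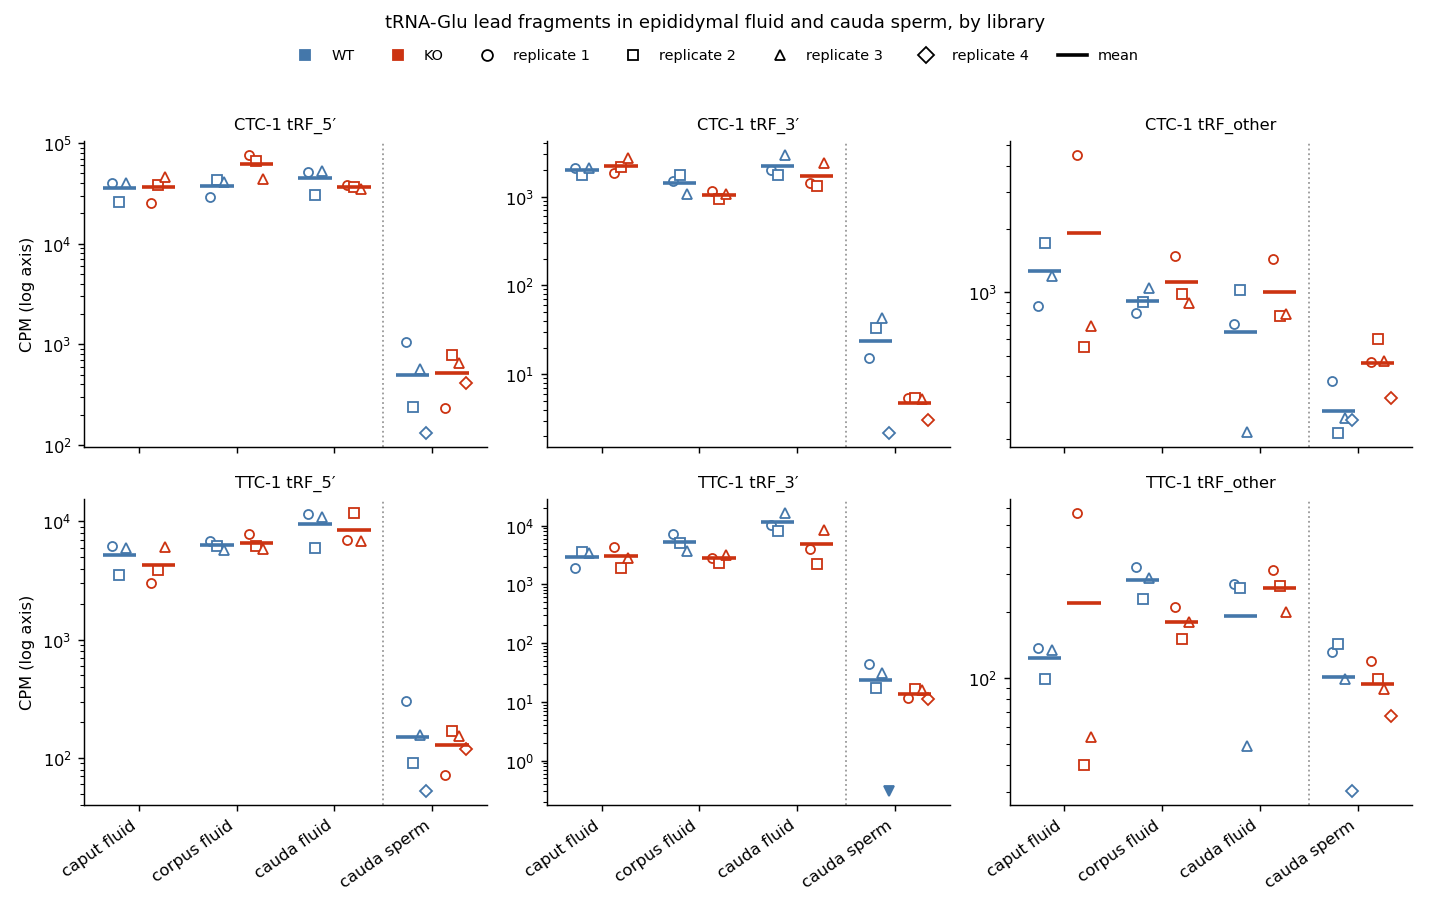
Level of the 3 fragment types of tRNA-Glu-CTC-1 (top) and tRNA-Glu-TTC-1 (bottom) in each fluid and sperm library, in CPM on log axes that differ between panels; colour marks genotype, the symbol the replicate number, the line the group mean, and the dotted line separates fluid from sperm, which were scaled separately. The filled triangle marks the WT sperm library with 0 counts of TTC-1 tRF_3′, and TTC-1 tRF_3′ lies at 8005 to 16561 CPM in WT cauda fluid.

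In corpus fluid, tRNA-Glu fragments were not called between genotypes, although many other tRFs were. CTC-1 tRF_5′ was at 28937, 43084 and 40834 CPM in WT and at 76436, 66247 and 44047 CPM in KO. TTC-1 tRF_3′ was at 7126, 5052 and 3724 CPM in WT and at 2769, 2338 and 3201 CPM in KO. The KO libraries were all higher for the first and all lower for the second. The log2 fold changes were 0.73 (SE 0.31, adjusted p = 0.105), which turned to -0.05 when scaling left out tRFs, tRNAs and rsRNAs, and -0.94 (SE 0.44, adjusted p = 0.134). edgeR called 0 of 16 members, 2 had an unadjusted p under 0.05 and DESeq2 called 0, where edgeR called 19.7% of all RNAs tested.

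Of the 545 other tRFs tested in corpus fluid, 106 were called lower and 0 higher, and their median log2 fold change was -0.60. The median over tRNA-Glu members was -0.35 and over all RNAs 0.10, and 12 of 16 members were negative. Every KO library was below every WT library for 5 members and for 15.7% of all RNAs. TTC-1 tRF_5′, at 6875, 6152 and 5777 CPM in WT and at 7871, 6156 and 5811 CPM in KO, overlapped (0.08, SE 0.35, adjusted p = 0.921, and -0.74 with the scaling on other RNAs). That scaling moved the median over all RNAs from 0.10 to -0.71, and 6 of 16 members were then called lower, where 23.1% of all RNAs were.

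By shares, which need no scaling, CTC made up 56.8%, 69.9% and 72.2% of tRNA-Glu fragment counts in WT corpus fluid and 81.1%, 82.4% and 74.7% in KO corpus fluid. tRF_5′ made up 73.3%, 81.2% and 84.5% in WT and 91.3%, 91.9% and 86.5% in KO. Neither overlapped. The means differed by 13.1 and 10.2 percentage points, and each exact permutation test gave p = 0.1, the smallest possible, with an adjusted p of 0.467. Epithelial microRNAs (Mir200a, Mir200b, Mir200c, Mir141 and Mir429) summed to 27.1 to 62.6 CPM in WT and 87.5 to 134 CPM in KO corpus fluid, and those of germ and multiciliated cells (Mir34b, Mir34c and Mir449a) to 3.6 to 9.1 CPM in WT and 12.8 to 15.4 CPM in KO; their part in these values was not tested.

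In caput and cauda fluid no tRNA-Glu fragment was called between genotypes. In caput fluid, KO replicate 1 stood apart in the internal fragments. CTC-1 tRF_other was at 862, 1718 and 1198 CPM in WT and at 4506, 548 and 693 CPM in KO. TTC-1 tRF_other was at 137, 99.5 and 135 CPM in WT and at 571, 40.02 and 53.7 CPM in KO. One KO library was thus above all WT libraries and the other two below them, and the log2 fold changes of 0.61 and 0.84 turned to -0.92 and -1.31 without KO replicate 1. CTC-1 tRF_5′, at 40459, 25962 and 39737 CPM in WT and at 25631, 38524 and 46216 CPM in KO, overlapped (0.06, SE 0.31, adjusted p = 0.977). edgeR called 0 of 16 members, 0 had an unadjusted p under 0.05 and DESeq2 called 0, where edgeR called 0% of all RNAs tested. Epithelial microRNAs summed to 103 to 182 CPM in WT and 241 to 298 CPM in KO caput fluid, and leukocyte microRNAs (Mir223 and Mir142) to 6.4 to 9.98 CPM in WT and 11.8 to 17.5 CPM in KO; their part was not tested.

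In cauda fluid, TTC-1 tRF_3′ was at 10115, 8005 and 16561 CPM in WT and at 3951, 2183 and 8517 CPM in KO. TTC-2 tRF_3′ was at 4701, 3604 and 7254 CPM in WT and at 2039, 1365 and 4236 CPM in KO. KO replicate 3 was the highest of its group and overlapped the WT range in both. The log2 fold changes were -1.24 (SE 0.44, adjusted p = 0.297) and -1.03 (SE 0.40, adjusted p = 0.383). Without KO replicate 3, TTC-1 tRF_3′ was at -1.93 (adjusted p = 0.0335) and 2 members were called, where 1.82% of all RNAs were. CTC-1 tRF_5′, at 51054, 30391 and 52627 CPM in WT and at 37935, 36877 and 35207 CPM in KO, overlapped (-0.29, SE 0.31, adjusted p = 0.76, and 0.05 with library size as the only scaling). edgeR called 0 of 16 members, 2 had an unadjusted p under 0.05 and DESeq2 called 0, where edgeR called 0% of all RNAs tested.

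The comparisons of WT cauda with WT caput and of KO with WT cauda share the WT cauda libraries, in fluid as in tissue. The members with the largest fitted values in each were 3′ fragments of TTC in fluid, at 1.98 and -1.24 for TTC-1, and 5′ fragments of TTC in tissue, at 2.02 and -2.08 for TTC-2. The KO effect was not shown to differ between segments of fluid for any member. edgeR called 0 of 16 differences between corpus and caput, 0 at an unadjusted p under 0.05 and 0 by DESeq2, where it called 1.83% of all RNAs. Between cauda and corpus it called 0 of 16, 1 at an unadjusted p under 0.05 and 0 by DESeq2, where it called 7.37% of all RNAs; for CTC-1 tRF_5′ the difference was -1.01 (SE 0.44, adjusted p = 0.159).

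In cauda sperm, the largest negative log2 fold changes in KO were those of 3′ fragments of CTC-2, CTC-1 and TTC-3, and none passed the edgeR test. CTC-1 tRF_3′ was at 15.2, 33.2, 43.4 and 2.17 CPM in WT and at 5.35, 5.45, 5.30 and 3.09 CPM in KO. WT replicate 4 was below all KO libraries and the other three WT libraries were above them. Its log2 fold change was -2.25 (SE 0.69, adjusted p = 0.162), and TTC-3 tRF_3′, nearly the same measurement, was at -2.26 (adjusted p = 0.162). The row tRNA-Glu-CTC-2_threeprime was at 1.63, 23.4, 16.4 and 0.723 CPM in WT and at 0.957, 0.757, 0.723 and 0.343 CPM in KO, from 1 to 104 counts (-3.75, SE 0.90, adjusted p = 0.116). The row tRNA-Glu-CTC-2_other was at 2.25, 10.53, 2.64 and 9.40 CPM in WT and at 2.13, 1.62, 1.63 and 1.37 CPM in KO. It was the 1 member with every KO library below every WT library, which held for 1.25% of all RNAs (-1.81, SE 0.55, adjusted p = 0.162).

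edgeR called 0 of 16 members in sperm, with 4 at an unadjusted p under 0.05, and DESeq2 called 4 lower (CTC-1 tRF_3′, CTC-2 tRF_3′, CTC-2 tRF_other and TTC-3 tRF_3′), where edgeR called 0% of all RNAs tested and DESeq2 called 4.6% (140 RNAs, 135 of them lower). In DESeq2, CTC-1 tRF_3′ was at -2.47 (adjusted p = 0.0173) and CTC-2 tRF_3′ at -4.00 (adjusted p = 0.00133). Without WT replicate 4, edgeR called 4 members, with CTC-1 tRF_3′ at -2.53 (adjusted p = 0.00205), where it called 11.5% of all RNAs. Depth was unevenly spread over the genotypes. CTC-1 tRF_3′ was at -1.66 among the deep libraries, 1 WT and 3 KO, and at -3.01 among the shallow ones, 3 WT and 1 KO, but each value rests on a single library of one genotype, so genotype and library cannot be told apart in it.

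The 5′ fragments of sperm showed no detectable difference. CTC-1 tRF_5′ was at 1062, 238, 569 and 130 CPM in WT and at 234, 785, 658 and 411 CPM in KO (log2 fold change 0.06, SE 0.60, adjusted p = 0.968, and -0.32 with library size as the only scaling). TTC-1 tRF_5′ was at 302, 90.9, 158 and 52.4 CPM in WT and at 72.1, 169, 153 and 119 CPM in KO (-0.24, SE 0.53, adjusted p = 0.871). The genotypes overlapped throughout. TTC-1 tRF_3′ was at 44.8, 17.2, 31.2 and 0 CPM in WT, where the 0 counts of replicate 4 allow up to 1.08 CPM by counting error alone, and at 11.6, 16.4, 15.6 and 11.3 CPM in KO (-0.77, SE 0.85, adjusted p = 0.74). CTC-1 tRF_other was at 379, 214, 254 and 247 CPM in WT and at 467, 602, 469 and 315 CPM in KO (0.76, SE 0.37, adjusted p = 0.315).

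Of the 16 members 14 had negative log2 fold changes in sperm, with a median of -0.42, against -0.68 over the other tRFs, of which 434 of 517 were negative, and 0.00 over all RNAs. In DESeq2, which fitted all 18 rows, 17 were negative, with a median of -0.89. As a share of all tRF counts, tRNA-Glu was at 3.80%, 2.59%, 3.54% and 3.69% in WT sperm and at 4.20%, 4.71%, 4.78% and 4.66% in KO sperm. Every KO library was above every WT library. The two-sided exact permutation test gave p = 0.0286, the smallest that 4 against 4 libraries allow, and an adjusted p of 0.467 over 21 tests, so the difference did not pass the correction. The CTC share was 62.6% ± 7.9 in WT and 69.6% ± 3.8 in KO (SD, n = 4 each; exact permutation p = 0.171).

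The RNAs outside tRNA-Glu whose level followed CTC-1 tRF_5′ most closely over the 17 tissue libraries were 5′ fragments of tRNA-Gly-GCC-2, tRNA-Gly-GCC-3 and tRNA-Gly-GCC-4, each with a Spearman correlation of log2 CPM of 0.941. For TTC-1 tRF_5′ in tissue they included the 5′ fragments of tRNA-Gly-CCC-3, at 0.895, and of tRNA-Gly-GCC-2 and tRNA-Gly-GCC-3, both at 0.887. Here 4 RNAs stood at or above the third highest correlation, so a tied RNA is not named. Over the 18 fluid libraries CTC-1 tRF_5′ followed Snord87 (0.709), Mir7-1 (0.707) and Mir3535 (0.688), and TTC-1 tRF_5′ followed tRNA-Asp-GTC-1 tRF_3′ (0.752), tRNA-Ser-CGA-1 tRF_3′ (0.738) and tRNA-His-GTG-1 tRF_5′ (0.728). In tissue the closest RNAs named were thus fragments of the same type from glycine tRNAs, and in fluid they were of mixed kinds. The tRNA-Gly-GCC rows had equal correlations and may be close to 1 measurement, which was not tested. In sperm, with 8 libraries, 21 RNAs stood at or above the third highest correlation for CTC-1 tRF_5′ and 20 for TTC-1 tRF_5′, and none is named. These values describe libraries that share depth and scaling, and the tissue libraries numbered 3 are high in all these 5′ fragments.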

How the data were processed

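Small RNAs treated with PNK were sequenced from epididymis tissue, epididymal fluid and cauda sperm of WT and Rnase9-12 KO mice. The authors trimmed reads with cutadapt, aligned them with bowtie2 to mm10, mature tRNAs and rRNAs within a modified tRAX workflow, classified tRNA reads as whole, 5′, 3′ or other by their ends, and deposited raw counts per RNA without normalization; UMI-tools is named in the submitters' processing notes. Best mappings were kept with exceptions. For reads that fit tRNAs best, mappings outside tRNAs were removed, and reads that fit rRNA best were treated likewise. The stated method limits tRNA counts to reads that fit 1 anticodon, which does not account for the near-equal rows of CTC-1 and TTC-3 tRF_3′. Columns with no sample numbered 0.

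Groups followed the sample titles. Counts of each table were fitted over all its groups with edgeR 4.0.16 in R 4.3.3 (filterByExpr with a minimum count of 10 and a total of 15, trimmed mean of M values, quasi-likelihood F-test, Benjamini-Hochberg adjustment over all RNAs of the table); the tissue fit tested 3488 of 4890 RNAs, the fluid fit 2023 of 3178 and the sperm fit 2480 of 4323. DESeq2 1.42.0, used in the study, was the alternative. Shares of counts were compared by two-sided exact permutation tests. A count of 0 was given an upper limit of 3 counts; limits cover counting error only. Counts were simulated with log2 fold changes of 2 in either direction for 200 RNAs. Of those changed RNAs that passed the low-count filter, 62.6% were called for the cauda tissue comparison, 60.6% for corpus fluid and 59.8% for sperm. These were 124, 117 and 113 RNAs of the 200 changed. Smaller changes were not simulated. Among 46 pairs of replicates the lowest chi-square per degree of freedom was 26.5, so no pair was counted as 1 library.

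Libraries of the same number were taken as paired where every correlation of their deviations exceeded 0.1: KO and WT cauda tissue (0.28, 0.27 and 0.60) and WT cauda and caput tissue (0.31, 0.39 and 0.63), as well as WT corpus and caput tissue (0.31, 0.38 and 0.55). The pairing comes from the data, since the labels give only the numbers. The block was fitted over all groups of a source together, including groups that failed this check.

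Values by library are given for the 6 fragments of CTC-1 and TTC-1 and for any other member called in a comparison; TTC-2 tRF_5′ and CTC-2 fragments in KO comparisons, and TTC-2 tRF_3′ in cauda fluid, were named after their values were seen. The members and lists were chosen with earlier results of these data known. Locations of tRNA-Glu genes are from RefSeq (GRCm38). Alternatives were another scaling, no low-count filter, DESeq2, a replicate block, the 2 groups alone, isodecoders summed or the most counted one alone, and each library left out; restrictions by depth and to the tissue libraries numbered 1 and 2 were chosen after seeing the data.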

Additional observations from a re-analysis of the deposited data

Results flagged for a closer look

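Within the 4 KO cauda sperm libraries, CTC-1 tRF_3′ was at 3.09 CPM in replicate 4 against 5.30 to 5.45 CPM in the other three, a gap of 0.938 of the group's range and above Dixon's critical value for 4 values. This library is the only shallow one of its group, and its value rests on few counts; the part of depth was not tested. In the same group, tRF_5′ made up 40.3% of tRNA-Glu fragment counts in replicate 1 against 59.5% to 61.1% in the other three, a gap of 0.925 of the range; that library is deep. Of 26 groups of 4 values examined, 2 stood out in this way, and chance alone marks about 1 in 20.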

How the results depend on the processing

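The calls of TTC-1 and TTC-2 tRF_other in cauda tissue and of TTC-1 and TTC-2 tRF_5′ between WT cauda and caput tissue were lost under several settings, and the cause was not tested. Those of TTC-1 tRF_3′ between WT cauda and caput fluid were kept under every setting run. Genotype differences in shares kept their direction when taken from the most counted isodecoder alone. Outside the libraries left out in turn, 85 counts of calls stayed within 1.5 times the main count or on its side, 12 rose and 6 fell; of the log2 fold changes of the CTC-1 and TTC-1 fragments, 493 kept direction and side of the threshold, 11 came to pass it, 7 called values no longer passed it, and 59 changed sign, none of them among called fragments. Depth limits tRNA-Glu-CTC-2_threeprime in sperm, at 2 counts in WT replicate 4 and 1 in KO replicate 4. The values of deep or shallow sperm libraries alone rest on 1 library of one genotype.

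With library size as the only scaling, the members called numbered 0 in cauda tissue, 1 in WT cauda against caput tissue and 1 in WT corpus against caput fluid, and the log2 fold change changed sign, to -0.0271 for CTC-1 tRF_5′, -0.0168 for CTC-1 tRF_3′, -0.0235 for TTC-1 tRF_3′ and -0.14 for TTC-1 tRF_other in caput tissue, -0.23 for CTC-1 tRF_3′ in WT corpus against caput tissue, -0.15 for CTC-1 tRF_3′ and -0.0437 for TTC-1 tRF_other in WT cauda against caput tissue, 0.0497 for CTC-1 tRF_5′ and 0.16 for TTC-1 tRF_5′ in cauda fluid and -0.32 for CTC-1 tRF_5′ in cauda sperm. With scaling on RNAs other than tRFs, tRNAs and rsRNAs, the members called numbered 0 in cauda tissue, 6 in corpus fluid, 1 in WT corpus against caput fluid and 5 in WT cauda against caput fluid, and the log2 fold change changed sign, to -0.0933 for TTC-1 tRF_other in caput tissue, 0.0154 for TTC-1 tRF_other in corpus tissue, -0.32 for CTC-1 tRF_3′ and -0.0266 for TTC-1 tRF_3′ in WT corpus against caput tissue, -0.44 for CTC-1 tRF_3′, -0.28 for TTC-1 tRF_3′ and -0.22 for TTC-1 tRF_other in WT cauda against caput tissue, -0.15 for CTC-1 tRF_5′, -0.00975 for CTC-1 tRF_3′ and -0.0620 for TTC-1 tRF_3′ in caput fluid, -0.0476 for CTC-1 tRF_5′, -0.74 for TTC-1 tRF_5′ and -0.48 for CTC-1 tRF_other in corpus fluid and -0.31 for CTC-1 tRF_5′ in cauda sperm. With DESeq2 size factors in edgeR, the members called numbered 5 in WT cauda against caput fluid, and the log2 fold change changed sign, to -0.0198 for CTC-1 tRF_5′, -0.00888 for CTC-1 tRF_3′, -0.00778 for TTC-1 tRF_3′ and -0.10 for TTC-1 tRF_other in caput tissue, -0.0420 for CTC-1 tRF_3′ in WT corpus against caput tissue and -0.16 for CTC-1 tRF_5′ in cauda sperm. With DESeq2, the members called numbered 5 in cauda tissue, 5 in WT cauda against caput fluid and 4 in cauda sperm, and the log2 fold change changed sign, to -0.0203 for CTC-1 tRF_5′, -0.00888 for CTC-1 tRF_3′, -0.00746 for TTC-1 tRF_3′ and -0.10 for TTC-1 tRF_other in caput tissue, -0.0412 for CTC-1 tRF_3′ in WT corpus against caput tissue, -0.00341 for TTC-1 tRF_5′ in corpus fluid and -0.15 for CTC-1 tRF_5′ in cauda sperm. With no filter on low counts, the members called numbered 1 in WT cauda against caput tissue, and the log2 fold change changed sign, to -0.000339 for CTC-1 tRF_5′ and -0.0515 for TTC-1 tRF_other in caput tissue, -0.10 for TTC-1 tRF_5′ in corpus fluid and -0.0457 for CTC-1 tRF_5′ in cauda sperm. With the replicate number as a block, the members called numbered 4 in cauda tissue and 1 in the contrast of KO effects, cauda minus caput tissue, and the log2 fold change changed sign, to -0.0122 for TTC-1 tRF_other in caput tissue, 0.13 for TTC-1 tRF_other in corpus tissue, -0.0158 for TTC-1 tRF_3′ in caput fluid and 0.0400 for TTC-1 tRF_5′ and 0.0668 for TTC-1 tRF_other in cauda sperm. With the 2 groups alone, the members called numbered 0 in cauda tissue, 1 in WT cauda against caput tissue and 2 in WT corpus against caput fluid, and the log2 fold change changed sign, to -0.00350 for CTC-1 tRF_5′ and -0.0751 for TTC-1 tRF_other in caput tissue. With isodecoders summed by fragment type, the log2 fold change changed sign, to -0.0161 for CTC tRF_5′ and -0.11 for TTC tRF_other in caput tissue, -0.11 for CTC tRF_3′ in WT corpus against caput tissue, -0.20 for TTC tRF_5′ in corpus fluid and -0.29 for CTC tRF_5′ in cauda sperm. With tissue libraries numbered 1 and 2 alone, the members called numbered 4 in cauda tissue, and the log2 fold change changed sign, to -0.0622 for TTC-1 tRF_3′ and -0.23 for TTC-1 tRF_other in caput tissue and 0.15 for CTC-1 tRF_3′ and 0.43 for TTC-1 tRF_3′ in cauda tissue. With the deep sperm libraries alone, the log2 fold change changed sign, to -1.09 for CTC-1 tRF_5′ in cauda sperm. With the shallow sperm libraries alone, the log2 fold change changed sign, to 0.30 for TTC-1 tRF_5′ in cauda sperm.

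Same-numbered libraries were paired by the check only in cauda tissue and among the WT segments of tissue. In caput tissue (correlations 0.03, 0.52 and 0.72), corpus tissue (0.15 and -0.03), all fluid comparisons and sperm (-0.21, -0.06, 0.10 and 0.31) they share only a number. With the block in sperm, 9 of 16 members were negative, with a median of -0.08. The block changed no other count of calls by over 1.5 times.

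With each library left out in turn, the members called numbered 0 to 3 in WT cauda against caput tissue, 0 to 2 in cauda tissue, 2 to 6 in WT cauda against caput fluid, 0 to 2 in cauda fluid and 0 to 4 in cauda sperm. Shares changed sign, as KO minus WT in percentage points, with ranges of -0.68 to 0.93 for the share of tRF counts, -1.65 to 3.33 for the 5′ share and -1.41 to 0.14 for the CTC share in caput tissue, -0.89 to 1.86 for the CTC share in corpus tissue, -0.86 to 0.94 for the share of tRF counts in cauda tissue, -5.75 to 3.65 for the 5′ share in caput fluid, -1.23 to 0.67 for the share of tRF counts in cauda fluid and -4.34 to 4.03 for the 5′ share in cauda sperm. Log2 fold changes that changed sign ranged from -0.69 to 1.11 for CTC-1 tRF_5′, -1.03 to 0.14 for TTC-1 tRF_5′, -0.54 to 0.74 for CTC-1 tRF_3′, -0.34 to 0.38 for TTC-1 tRF_3′ and -0.26 to 0.18 for TTC-1 tRF_other in caput tissue, -0.55 to 1.496 for CTC-1 tRF_5′, -0.18 to 1.20 for TTC-1 tRF_5′ and -0.42 to 0.76 for CTC-1 tRF_3′ in WT corpus against caput tissue and -0.13 to 1.83 for CTC-1 tRF_5′, -0.67 to 0.84 for CTC-1 tRF_3′ and -0.33 to 0.66 for TTC-1 tRF_3′ in WT cauda against caput tissue. Further, they ranged from -0.28 to 0.0316 for CTC-1 tRF_other and -0.22 to 0.14 for TTC-1 tRF_other in corpus tissue, -1.13 to 0.23 for CTC-1 tRF_5′, -0.80 to 0.34 for CTC-1 tRF_3′ and -0.59 to 0.33 for TTC-1 tRF_3′ in cauda tissue and -0.14 to 0.36 for CTC-1 tRF_5′, -0.59 to 0.0164 for TTC-1 tRF_5′, -0.21 to 0.42 for TTC-1 tRF_3′, -0.92 to 1.22 for CTC-1 tRF_other and -1.31 to 1.51 for TTC-1 tRF_other in caput fluid. Finally, they ranged from -0.0125 to 0.32 for CTC-1 tRF_5′ in WT corpus against caput fluid, -0.18 to 0.17 for TTC-1 tRF_5′ and -0.0504 to 0.44 for CTC-1 tRF_other in corpus fluid, -0.36 to 0.00322 for TTC-1 tRF_5′ in cauda fluid and -0.41 to 0.47 for CTC-1 tRF_5′ and -0.60 to 0.11 for TTC-1 tRF_5′ in cauda sperm.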

Other observations

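Full-length tRNA-Glu, which is outside the comparisons above, had few counts in fluid and was uneven among libraries. In caput fluid the log2 fold changes of KO against WT of the 3 rows that passed the filter were between 2.13 and 3.71, with adjusted p of 0.139 or more. The 18 rows of tRNA-Glu gene loci tested in tissue, which count reads at the genes themselves, all had positive log2 fold changes in KO cauda tissue, with a median of 0.63 and none called. The 4 full-length rows had a median of 0.85 there, while all 17 fragments were negative. Antisense tRNA-Glu reads reached testable counts only in fluid, with 1 row, and it was called lower in WT cauda than in WT caput fluid (log2 fold change -1.95, adjusted p = 0.026).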
